A study of Homo sapiens with 6 samples.

Results

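Genes of cholesterol synthesis, uptake and regulation were compared between C4-2B parental cells and C4-2B enzalutamide resistant cells by RNA-Seq. The set held 33 of the 58024 genes in the deposited table and was chosen by gene symbol, with no threshold on a measured value. C4-2B (C42-B in the sample labels) is a human prostate cancer line of the LNCaP lineage, passed through castrated nude mice and able to grow with little androgen. The resistant cells had been exposed to rising enzalutamide, from 1 to 20 µM, for at least 6 months, were then maintained in 5 µM, and represent the surviving cells pooled rather than a single clone. The parental cells were passaged alongside in dimethyl sulfoxide, for which the sources used here give more than one concentration. RNA was extracted after exposure to 10 µM enzalutamide, and the sources used here do not settle whether the parental cells received it. Each group held 3 libraries, numbered 0, 1 and 2. No source says that these came from separate cultures, so the p values measure the spread between these libraries, which may be technical.

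Cells make cholesterol from acetyl-CoA. The mevalonate steps lead to farnesyl diphosphate, a branch point from which squalene, lanosterol and then cholesterol are made, while other enzymes draw on it for prenylated proteins, dolichol and ubiquinone. The transcription factor SREBP2 (gene SREBF2) drives most of these enzymes when sterols in the endoplasmic reticulum are low. It is carried to the Golgi by SCAP, held back by the INSIG proteins when sterols are high, and freed by proteases. Cholesterol also arrives in lipoproteins, leaves the lysosome through NPC2 and NPC1, and is stored as ester by SOAT1. When oxysterols accumulate, the LXR nuclear receptors turn on export and the ubiquitin ligase MYLIP, which degrades lipoprotein receptors. In the prostate, cholesterol is also a precursor of androgens.

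Values are FPKM, a level per unit of transcript length and of sequencing depth, which allows different genes to be set side by side. Log2 fold changes are on the scale log2(FPKM + 0.1), resistant minus parental. A gene was counted as upregulated or downregulated when its limma p, adjusted by Benjamini-Hochberg over all 24468 genes whose mean reached 0.1 FPKM, was below 0.05. The table holds no read counts. From the smallest values of genes with a single transcript, and fragments assumed to be 200 bases long, depth was estimated at 13300000 to 20700000 reads per library, at which a transcript of 2000 bases gains 0.0269 to 0.0416 FPKM from 1 read. Across genes, libraries of a group correlated with a Pearson r of 0.911 to 0.929 and libraries of different groups with 0.782 to 0.802. The luminal prostate markers KLK2, KLK3, FOLH1, TMPRSS2, HOXB13, EPCAM, CDH1, KRT8 and KRT18 all averaged at least 10 FPKM, and 7 of these 9 were downregulated. KLK3 ranged from 2321 to 2857 FPKM in the parental libraries and from 41.8 to 46.8 FPKM in the resistant libraries. Of the neuroendocrine markers, ENO2 ranged from 5.90 to 8.46 FPKM in parental and from 124 to 152 FPKM in resistant libraries, and SYP from 0.843 to 2.25 FPKM and from 46.4 to 53.6 FPKM, while CHGA, a defining marker, was upregulated but reached at most 0.605 FPKM in any library. The hepatocyte markers summed to 2.16 to 3.72 FPKM in parental and 49.9 to 57.6 FPKM in resistant libraries, where ALB made up nearly all of it, with APOA1 and TTR at 0.0907 to 0.459 FPKM in the resistant libraries. The fibroblast markers summed to 5.00 to 8.87 FPKM in parental and 6.53 to 11.2 FPKM in resistant libraries, where DCN was listed at 0 in every parental library and at 3.63 to 4.35 FPKM in the resistant libraries. The basal, leukocyte and endothelial markers each summed to at most 1.14 FPKM in any library. The part of these shifts in the results on cholesterol genes was not tested, and in bulk RNA fewer cells of a kind and less RNA per cell cannot be told apart.

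The promoters of 8 genes are shown as examples, chosen with their values known: HMGCS1, FDPS, MVD and SOAT1 were upregulated, NSDHL, INSIG1 and NPC1 were downregulated, and SREBF2 encodes the shared transcription factor. CYP51A1 is not shown, since its RefSeq window lies inside the gene as GENCODE v44 draws it. The sequences are RefSeq windows on GRCh38.p14, read 5′ to 3′ on the strand of the gene, and each run ends before the first annotated base of its gene. Capitals mark a GC box (GGGCGG, the site of SP1), a CCAAT box (CCAAT, the site of NF-Y, a partner of SREBP), or a sterol regulatory element searched as TCACCCCAC, as TCACNCCAC or with 2 free bases as TCACNCNAC, each on either strand. The runs lie at chr5:43313513-43313662 (minus strand), chr1:155308616-155308747 (plus), chr16:88663162-88663311 (minus), chrX:152830817-152830966 (plus), chr7:155297628-155297775 (plus), chr22:41832955-41833104 (plus), chr18:23586507-23586656 (minus) and chr1:179293564-179293713 (plus), in the order given here.
HMGCS1: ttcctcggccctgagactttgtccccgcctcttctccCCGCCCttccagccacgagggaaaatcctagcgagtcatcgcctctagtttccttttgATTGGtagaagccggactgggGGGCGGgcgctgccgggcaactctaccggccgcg
FDPS: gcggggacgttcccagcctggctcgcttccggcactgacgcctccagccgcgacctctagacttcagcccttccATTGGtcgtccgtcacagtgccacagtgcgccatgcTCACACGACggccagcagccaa
MVD: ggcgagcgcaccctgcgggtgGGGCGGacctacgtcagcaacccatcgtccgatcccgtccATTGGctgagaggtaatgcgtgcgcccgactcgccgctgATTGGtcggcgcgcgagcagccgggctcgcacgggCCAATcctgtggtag
NSDHL: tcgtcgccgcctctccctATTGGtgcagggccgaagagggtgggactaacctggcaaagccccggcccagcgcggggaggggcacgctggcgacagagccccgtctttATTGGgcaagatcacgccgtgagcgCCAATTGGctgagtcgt
INSIG1: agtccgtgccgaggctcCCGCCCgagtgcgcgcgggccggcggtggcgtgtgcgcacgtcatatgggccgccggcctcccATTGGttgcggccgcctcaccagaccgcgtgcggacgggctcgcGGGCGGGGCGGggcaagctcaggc
SREBF2: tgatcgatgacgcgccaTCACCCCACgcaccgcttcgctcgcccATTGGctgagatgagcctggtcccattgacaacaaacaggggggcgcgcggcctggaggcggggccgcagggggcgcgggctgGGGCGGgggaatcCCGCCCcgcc
NPC1: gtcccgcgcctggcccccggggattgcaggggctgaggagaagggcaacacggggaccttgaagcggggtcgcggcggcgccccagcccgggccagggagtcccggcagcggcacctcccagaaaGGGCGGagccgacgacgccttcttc
SOAT1: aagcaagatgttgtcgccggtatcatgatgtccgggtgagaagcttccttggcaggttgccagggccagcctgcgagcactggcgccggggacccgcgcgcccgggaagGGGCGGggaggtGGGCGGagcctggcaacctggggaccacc

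RefSeq windows, from 250 bases before to 50 bases after a start site, were at hand for 28 of the 33 genes, all but ACAT2, FDFT1, SQLE, SCARB1 and SOAT2. A CCAAT box lay in a window of 21 of the 28 genes, or 75.0%, against 39.7% of all 27305 genes with a window and 34.6% of all windows. A GC box was found in 26 of the 28 genes, or 92.9%, against 48.3% of all genes with a window and 45.0% of all windows. These background shares were taken whether or not a gene was expressed in these cells, and shares among expressed genes were not worked out. The sterol regulatory element as TCACCCCAC was found in SREBF2 alone among the 28, 133 bases before the start site. It was held by 0.535% of all genes with a window and 0.430% of all windows. TCACNCCAC gave the same site of SREBF2 and was held by 1.39% of all genes with a window and 1.13% of all windows. With TCACNCNAC, which 3.13% of all genes with a window and 2.55% of all windows hold, FDPS had a match 140 bases before its start site. HSD17B7 had another at 98 bases. The palindrome TCACGTGA, which SREBPs can also bind and which overlaps none of the other motifs, was found 56 bases before the start site of INSIG1, outside the stretch printed. It was held by 1.18% of all genes with a window and 0.980% of all windows. CCAAT boxes were spread over the directions of change: 7 of the 9 upregulated genes with a window, 4 of the 5 downregulated genes and 10 of the 14 others held one. Of the genes with the largest changes, SOAT1 had a CCAAT box, 85 bases before its start site and not within the stretch printed. CYP51A1 and NPC1 had no CCAAT box in their windows, though both held a GC box. These are matches of letters and not measured binding.

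**Figure D1:**
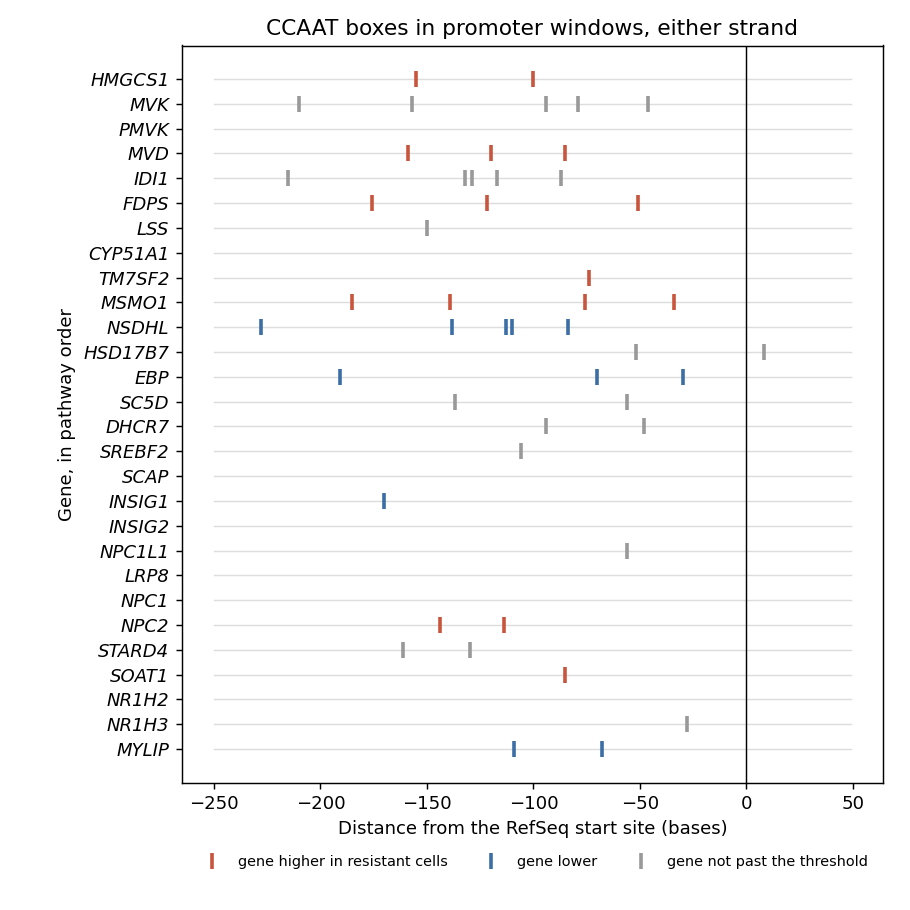
CCAAT boxes on either strand in the promoter windows of 28 genes. The x axis gives the distance of each match from the RefSeq start site in bases, each row is a gene in pathway order with all its windows laid over each other, and colour gives the direction of the gene in resistant cells. Matches of all 3 kinds of gene lie before the start site, apart from 1 of HSD17B7 just after it.

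Of the 33 genes, 32 reached a mean of 0.1 FPKM and were tested, the exception being SOAT2. In resistant cells 10 were upregulated and 6 downregulated, while 16 did not pass the threshold. The called share of 50.0% lay close to the 44.4% called among all genes tested, and below the 55.1% called among genes averaging 1 FPKM or more. The share upregulated was 31.3%, against 22.1% of all genes and 25.7% of the more abundant ones, and the share downregulated was 18.8%, against 22.3% and 29.3%. The number of calls was therefore near the background, and the median log2 fold change of the set, −0.08, was near the −0.05 of all genes. With scaling by the median ratio between libraries, which raised the median of all genes by 0.10, the median of the set was 0.02. The groups did not overlap in 22 of the 32 genes tested, against 54.8% of all genes. Of the 18 synthesis enzymes 8 were upregulated and 2 downregulated, and of the 14 other genes tested 2 were upregulated and 4 downregulated, a difference that was not tested.

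**Figure D2:**
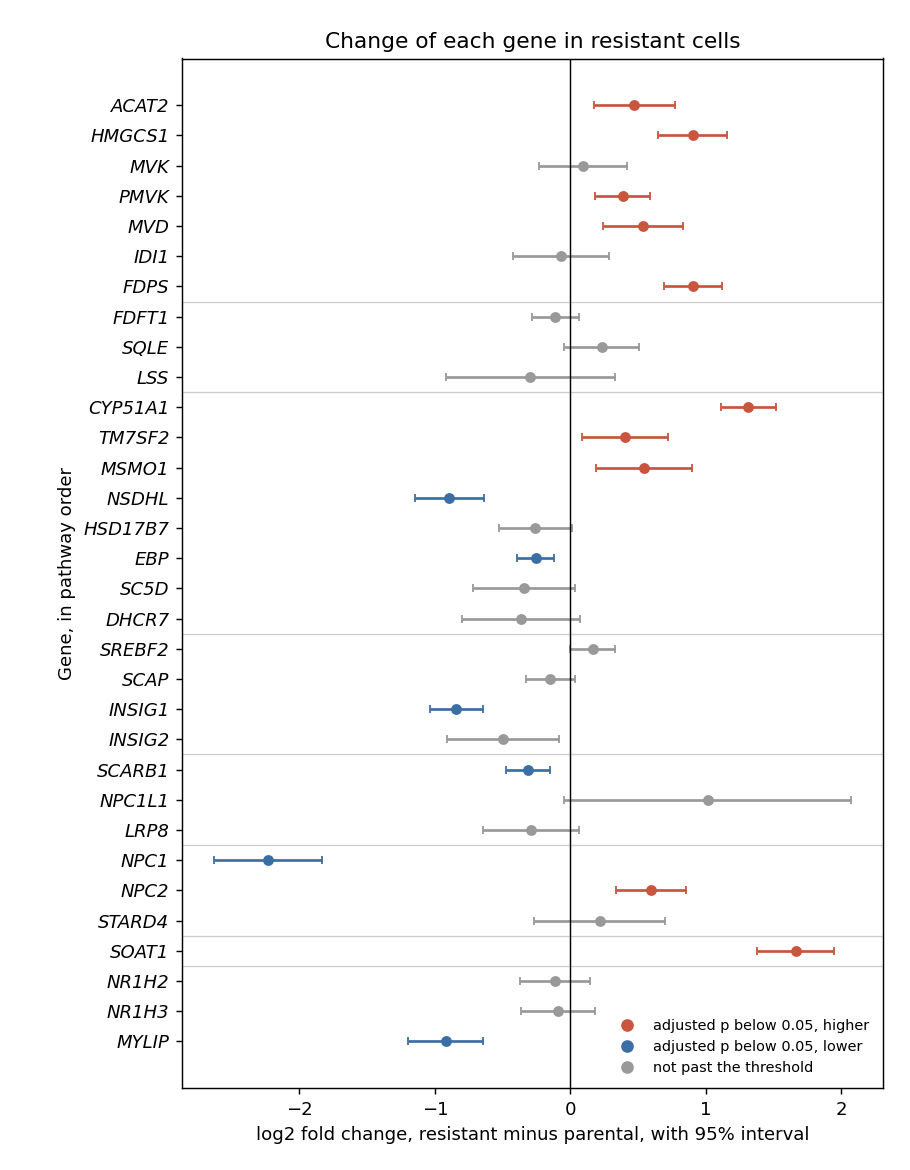
Log2 fold change of log2(FPKM + 0.1) for the 32 genes tested, resistant minus parental, on the x axis, with genes in pathway order from the first enzyme at the top and bars for the 95% interval from limma with 3 libraries a group. Lines separate the steps of the pathway. The largest changes were those of NPC1, at −2.23, SOAT1, at 1.66, and CYP51A1, at 1.31.

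Of the 7 genes of the mevalonate steps, 5 were upregulated, against 22.1% of all genes tested, none was downregulated and 2 did not pass, with a median log2 fold change of 0.47. ACAT2 here is the cytosolic thiolase that joins acetyl-CoA units, and it stood at 30.7, 30.8 and 23.9 FPKM in the parental and at 39.5, 41.7 and 36.7 FPKM in the resistant libraries. The groups did not overlap, and the log2 difference came to 0.47 (standard error, SE, 0.12), with a limma adjusted p of 0.0220. This call did not hold without resistant replicate 0 (adjusted p = 0.0637), without resistant replicate 1 (0.0737) or without a variance trend (0.0601). The exons of ACAT2 share 454 of 2639 bases with TCP1, a more abundant gene on the opposite strand at 194 ± 12.7 FPKM in parental and 178 ± 20.0 FPKM in resistant cells (SD, n = 3 each), and whether reads were counted by strand is not given in the sources used here.

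HMGCS1, which makes HMG-CoA and is a classical SREBP2 target, rose from 21.5, 24.8 and 22.7 FPKM in the parental to 41.2, 48.3 and 39.9 FPKM in the resistant libraries. All resistant values lay above all parental values, a 1.88-fold increase (log2 difference 0.90, SE 0.11, limma adjusted p = 8.45e-04). The kinases that follow differed. MVK, mevalonate kinase, was at 13.6, 18.6 and 15.7 FPKM in parental and 17.6, 17.0 and 16.2 FPKM in resistant libraries, with overlapping groups and a 95% interval of the log2 difference from −0.23 to 0.41. MMAB, a cobalamin gene that lies head to head with MVK on the opposite strand and shares 225 exonic bases with it, averaged 55.8 ± 2.12 FPKM in parental and 91.4 ± 8.43 FPKM in resistant cells (SD, n = 3 each). It was singled out after its values were seen.

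PMVK, phosphomevalonate kinase, was at 27.3, 23.8 and 25.4 FPKM in parental and at 34.1, 33.6 and 32.2 FPKM in resistant libraries. Its increase was modest and without overlap, with a log2 fold change of 0.39 (limma adjusted p = 0.0109). MVD, which decarboxylates the product to isopentenyl diphosphate, was at 23.0, 22.2 and 27.0 FPKM in parental and at 39.7, 33.2 and 32.1 FPKM in resistant libraries, a 1.45-fold increase (limma adjusted p = 0.0129). IDI1, the isomerase of isopentenyl diphosphate, did not pass the threshold. Its values were 25.8, 26.8 and 28.9 FPKM in parental and 29.7, 27.8 and 20.9 FPKM in resistant libraries, where replicate 2 was the lowest of all 6, and its interval ran from −0.42 to 0.28 on the log2 scale.

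FDPS, which makes farnesyl diphosphate and is a target of bisphosphonate drugs, was the most abundant enzyme of the pathway in resistant cells. It rose from 201, 172 and 195 FPKM to 334, 384 and 345 FPKM. The groups lay far apart, with a 1.87-fold increase (log2 difference 0.90, SE 0.09, limma adjusted p = 4.09e-04), which ranged from 0.84 to 1.01 over all alternatives tried. Its exons share 693 of 3718 bases with RUSC1-AS1 on the opposite strand, which averaged 2.10 FPKM in parental and 3.23 FPKM in resistant cells, far under the level of FDPS.

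**Figure D3:**
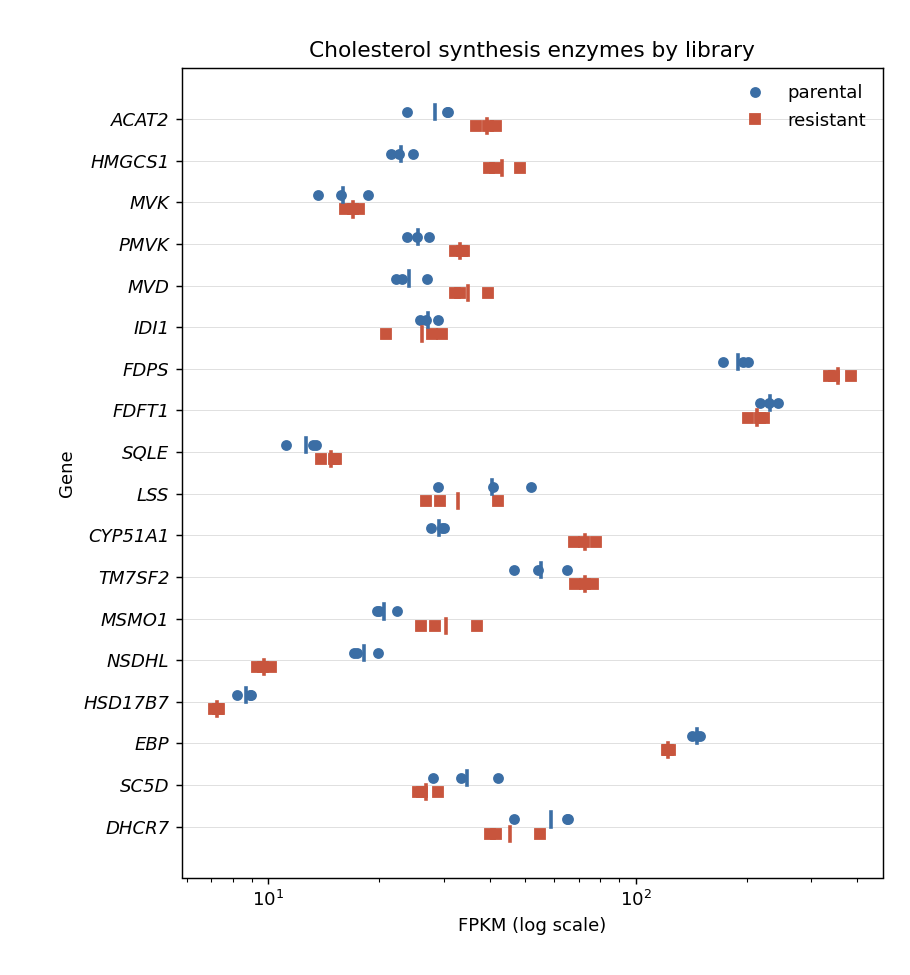
FPKM of the 18 cholesterol synthesis enzymes in each library, on a logarithmic x axis, with genes in pathway order from top to bottom. Circles are the 3 parental and squares the 3 resistant libraries, and short lines the group means. FDPS moved from about the level of FDFT1 in parental cells to above it in resistant cells, where its values lay between 334 and 384 FPKM.

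None of the 3 genes that lead from farnesyl diphosphate to lanosterol passed the threshold, which 44.4% of all genes tested did. FDFT1, squalene synthase, was the most abundant enzyme of the pathway in parental cells, at 231, 218 and 244 FPKM, and stood at 201, 223 and 217 FPKM in resistant libraries. The groups overlapped, and the 95% interval of the log2 difference, from −0.29 to 0.06, leaves no room for an increase of the size seen in FDPS. SQLE, squalene epoxidase, a rate-limiting step, was at 13.2, 11.2 and 13.4 FPKM in parental and at 13.9, 15.1 and 15.3 FPKM in resistant libraries. Its groups did not overlap, but its log2 difference of 0.23 had a limma adjusted p of 0.149. SQLE passed as upregulated after scaling by the median ratio (0.33, adjusted p = 0.0364) and after scaling to the sum without the 20 highest genes (0.29, adjusted p = 0.0487). LSS, lanosterol synthase, spread the most among the expressed genes of the set, with 40.8, 28.9 and 51.9 FPKM in parental and 26.8, 42.1 and 29.2 FPKM in resistant libraries. Replicate 1 was the lowest parental and the highest resistant library, and the interval from −0.92 to 0.33 would hold a change of either sign.

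Of the 8 genes beyond lanosterol, 3 were upregulated, 2 were downregulated and 3 did not pass the threshold. The called share of 62.5% lay near the 55.1% of genes averaging 1 FPKM or more. Of those genes 25.7% were upregulated and 29.3% downregulated, so that a mix of directions is also what the background holds. CYP51A1, the cytochrome that removes the first methyl group of lanosterol, had the largest change of the 18 synthesis enzymes. It was at 30.1, 27.7 and 29.7 FPKM in the parental and at 67.9, 78.1 and 72.2 FPKM in the resistant libraries. The 2 groups were far apart, with a 2.49-fold increase (log2 difference 1.31, SE 0.08, limma adjusted p = 7.21e-05). AKAP9, a neighbour on the opposite strand, averaged 27.5 ± 3.50 FPKM in parental and 216 ± 15.6 FPKM in resistant cells (SD, n = 3 each). In GENCODE v44 it shares 108 of the 4171 exonic bases of CYP51A1, which lie outside the locus given for CYP51A1 in the deposited table, and the part of AKAP9 in the value of CYP51A1 was not tested.

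TM7SF2, a sterol C14-reductase, was at 54.3, 65.0 and 46.5 FPKM in parental and at 72.8, 68.3 and 76.4 FPKM in resistant libraries. It was just past the threshold, with a log2 fold change of 0.40 and a limma adjusted p of 0.0462, and 5 of the 6 fits that left out a library put it above, with adjusted p values of 0.111 and 0.0990 without parental replicates 0 and 2, and of 0.113, 0.0796 and 0.137 without resistant replicates 0, 1 and 2. It did not pass without a variance trend either (0.110). LBR, which catalyses the same step and was singled out after its values were seen, rose from 56.1 ± 7.30 to 77.9 ± 4.63 FPKM (SD, n = 3 each). MSMO1, a C4-methyl sterol oxidase, was at 19.7, 22.3 and 19.9 FPKM in parental and at 36.9, 28.3 and 26.0 FPKM in resistant libraries. Its groups did not overlap, and its log2 fold change of 0.54 (limma adjusted p = 0.0243) was no longer past the threshold without parental replicate 0 (0.0746), parental replicate 2 (0.0697) or resistant replicate 1 (0.0515), or without a variance trend (0.0575).

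NSDHL, which acts in the same C4-demethylation complex as MSMO1, went the other way. Its values were 17.1, 17.4 and 19.9 FPKM in parental and 9.68, 10.2 and 9.30 FPKM in resistant libraries. The resistant level was lower in every library, by 1.87-fold (log2 difference −0.89, SE 0.11, limma adjusted p = 8.80e-04). HSD17B7, the 3-ketosteroid reductase of that complex, was at 8.21, 8.90 and 8.99 FPKM in parental and 7.11, 7.35 and 7.31 FPKM in resistant libraries, without overlap but with a limma adjusted p of 0.105. Its near-identical pseudogene HSD17B7P2 was listed at 0.515 to 1.65 FPKM, so that reads of the pair may be split between them.

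EBP, a sterol isomerase, was at 147, 150 and 142 FPKM in parental and within 122 to 123 FPKM in all resistant libraries. Replicates agreed closely, and a small decrease of 1.19-fold passed the threshold (log2 fold change −0.26, limma adjusted p = 0.0109). It did not pass after scaling by the median ratio (−0.15, adjusted p = 0.110), after quantile normalization (−0.10, adjusted p = 0.229) or without a variance trend (0.107). NSDHL and EBP are both on chromosome X, where 23.4% of 786 genes tested were downregulated, close to the 22.3% of all genes. SC5D and DHCR7, a desaturase and a reductase near the end of the pathway, did not pass. SC5D was at 28.1, 42.2 and 33.4 FPKM in parental and 26.2, 25.6 and 29.0 FPKM in resistant libraries, and reached an adjusted p of 0.0432 only without parental replicate 0. DHCR7 was at 64.7, 46.6 and 65.2 FPKM in parental and 41.7, 55.0 and 39.9 FPKM in resistant libraries, and reached 0.0449 only without parental replicate 1. As in LSS, replicate 1 gave the lowest parental and the highest resistant value of DHCR7.

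Summed over the 18 enzymes, the level was 989 ± 29.1 FPKM in parental and 1197 ± 55.2 FPKM in resistant cells (SD, n = 3 each). Without the 3 most abundant enzymes, FDPS, FDFT1 and EBP, the sums were 423 ± 8.54 and 506 ± 24.5 FPKM. FDPS took 19.1% ± 1.11 of the sum in parental and 29.6% ± 0.859 in resistant cells, while the share of FDFT1 went from 23.3% ± 0.672 to 17.9% ± 0.649. The ratio of 2 genes within a library does not change when all its values are multiplied by 1 factor, though quantile normalization can change it. Ratios are given as descriptions with no test, since the pairs were chosen with the values of their genes known. FDPS makes farnesyl diphosphate and FDFT1 draws it into sterols, and the ratio of FDPS to FDFT1 was 0.873, 0.790 and 0.799 in the parental and 1.66, 1.72 and 1.59 in the resistant libraries. The resistant ratios were all about 1 log2 unit higher, with a difference of 1.02. The ratio of CYP51A1 to NSDHL, which act in the removal of methyl groups from lanosterol, stood at 1.49 to 1.76 in parental and 7.01 to 7.76 in resistant libraries, also without overlap.

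Of the 4 genes that control SREBP, 1 passed the threshold, as downregulated, against 22.3% of all genes tested. The median log2 fold change of the 4 was −0.32. SREBF2 was at 86.7, 78.9 and 86.0 FPKM in parental and at 93.7, 91.1 and 97.2 FPKM in resistant libraries. All resistant values were slightly higher, with a log2 difference of 0.17 and a limma adjusted p of 0.0980. The call depended on scaling: it passed as upregulated after median ratio scaling (0.27, adjusted p = 0.0150), after quantile normalization (0.31, adjusted p = 0.00851) and after scaling to the sum without the 20 highest genes (0.23, adjusted p = 0.0247). SCAP, the escort of SREBP, was at 60.7, 55.3 and 55.2 FPKM in parental and at 53.6, 49.7 and 51.1 FPKM in resistant libraries, with a limma adjusted p of 0.154.

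INSIG1, which retains SCAP in the endoplasmic reticulum and is itself a sterol-repressed SREBP target, was downregulated. It was at 45.4, 44.7 and 40.4 FPKM in parental and at 24.9, 24.0 and 23.8 FPKM in resistant libraries. The 3 resistant values lay close together and well under the parental ones, a 1.80-fold decrease (log2 difference −0.84, SE 0.08, limma adjusted p = 3.69e-04), which ranged from −0.89 to −0.74 over all alternatives. INSIG2, its paralogue, was at 8.93, 6.66 and 9.17 FPKM in parental and at 5.40, 5.55 and 6.40 FPKM in resistant libraries. Its log2 difference of −0.50 just missed the threshold (limma adjusted p = 0.0562) and passed without parental replicate 1 (−0.64, adjusted p = 0.0188), after quantile normalization (0.0387) and when only genes averaging 1 FPKM or more were fitted (0.0439). HMGCS1 and INSIG1, both known SREBP targets, thus moved in opposite directions. Their ratio within a library was 0.473, 0.554 and 0.562 in parental and 1.66, 2.01 and 1.68 in resistant cells, which follows from their calls. The ratio of INSIG1 to INSIG2, both lower in resistant cells, was 5.09, 6.71 and 4.41 in parental and 4.61, 4.33 and 3.71 in resistant cells, with overlap. The promoters of HMGCS1 and INSIG1 printed above both hold a CCAAT box and GC boxes.

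Of the uptake genes, SCARB1 was downregulated. This receptor takes cholesterol ester from high density lipoprotein. It was at 71.2, 67.8 and 71.2 FPKM in parental and at 56.0, 54.5 and 58.8 FPKM in resistant libraries, a 1.24-fold decrease without overlap (log2 fold change −0.31, limma adjusted p = 0.00969), which was not past the threshold without a variance trend (0.0693). LRP8, a lipoprotein receptor that also binds reelin, was at 20.7, 20.2 and 24.2 FPKM in parental and at 14.7, 20.3 and 18.3 FPKM in resistant libraries, with overlap and an interval of −0.65 to 0.06. NPC1L1, the intestinal cholesterol importer blocked by ezetimibe, was barely listed, at 0.0216, 0.0920 and 0.0369 FPKM in parental and 0.231, 0.160 and 0.206 FPKM in resistant libraries. Such values rest on few reads. The resistant values were higher in every library, but the limma adjusted p was 0.108, and its log2 difference of 1.01 moved between 0.19 and 1.95 with the pseudocount and the other alternatives. NPC1L1 passed as upregulated without a variance trend (adjusted p = 0.0169).

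**Figure D4:**
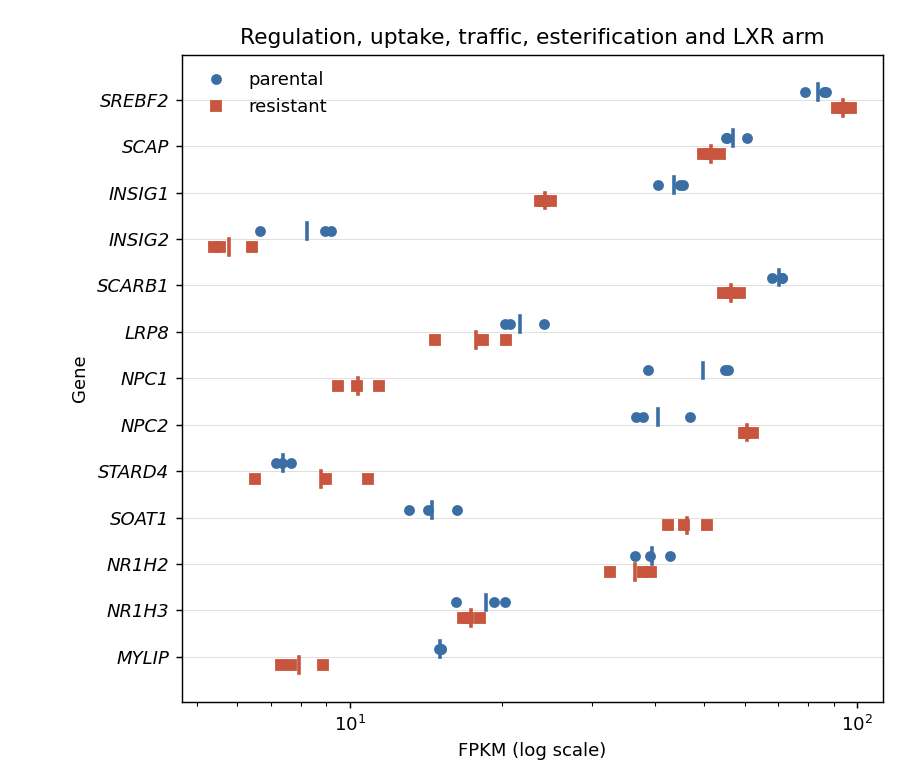
FPKM of the regulators, uptake and traffic genes, SOAT1 and the LXR arm in each library, on a logarithmic x axis, for genes averaging 1 FPKM or more. Circles are the 3 parental and squares the 3 resistant libraries, and short lines the group means. NPC1 fell from between 38.8 and 55.7 FPKM to between 9.49 and 11.4 FPKM, and SOAT1 rose from between 13.1 and 16.3 FPKM to between 42.4 and 50.7 FPKM.

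The largest change of the set was in intracellular traffic. NPC1 (GRCh38, chr18:23506184-23586506, minus strand), the membrane protein that moves cholesterol out of the lysosome and is mutated in Niemann-Pick disease type C, was downregulated. It was at 54.9, 38.8 and 55.7 FPKM in parental and at 10.3, 9.49 and 11.4 FPKM in resistant libraries. The lowest parental value was above 3 times the highest resistant value, and the means differed 4.79-fold (log2 difference −2.23, SE 0.17, limma adjusted p = 1.35e-04), which ranged from −2.40 to −2.13 over the alternatives. C18orf8, which overlaps 619 of its 9705 exonic bases on the opposite strand, averaged 28.1 FPKM in parental and 19.3 FPKM in resistant cells. On chromosome 18, 25.4% of 433 genes tested were downregulated.

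NPC2, the soluble lysosomal partner that hands cholesterol to NPC1, rose. Its values were 46.8, 36.7 and 37.9 FPKM in parental and 62.4, 59.9 and 60.2 FPKM in resistant libraries, an increase without overlap (log2 fold change 0.59, SE 0.11, limma adjusted p = 0.00505). The ratio of NPC2 to NPC1 in a library was 0.852, 0.947 and 0.680 in parental and 6.04, 6.31 and 5.28 in resistant cells. The groups of ratios lay far apart, with a log2 difference of 2.84. STARD4, a cytosolic sterol carrier and SREBP2 target, did not pass, with 7.34, 7.66 and 7.17 FPKM in parental and 6.50, 10.9 and 8.96 FPKM in resistant libraries, where the spread was wider.

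Of the 2 genes that esterify cholesterol, SOAT1 carried nearly all of the signal. SOAT1 (GRCh38, chr1:179293714-179358680, plus strand), the broadly expressed acyltransferase that fills lipid droplets, was at 14.3, 13.1 and 16.3 FPKM in parental and at 42.4, 45.6 and 50.7 FPKM in resistant libraries. It rose 3.18-fold without overlap (log2 difference 1.66, SE 0.12, limma adjusted p = 1.12e-04), from 1.59 to 1.77 over the alternatives. SOAT2, the form of liver and intestine, was listed at 0 in all libraries but resistant replicate 0, at 0.0437 FPKM, and was not tested. SOAT1, NPC1 and CYP51A1 were the genes of the set that passed the threshold with a change of at least 2-fold, which NPC1L1 also showed without passing, so that by this stricter rule 2 were upregulated and 1 downregulated of 32, where 28.5% of all genes were called in either direction. The ratio of SOAT1 to NPC1 in a library went from between 0.259 and 0.337 to between 4.11 and 4.81.

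**Figure D5:**
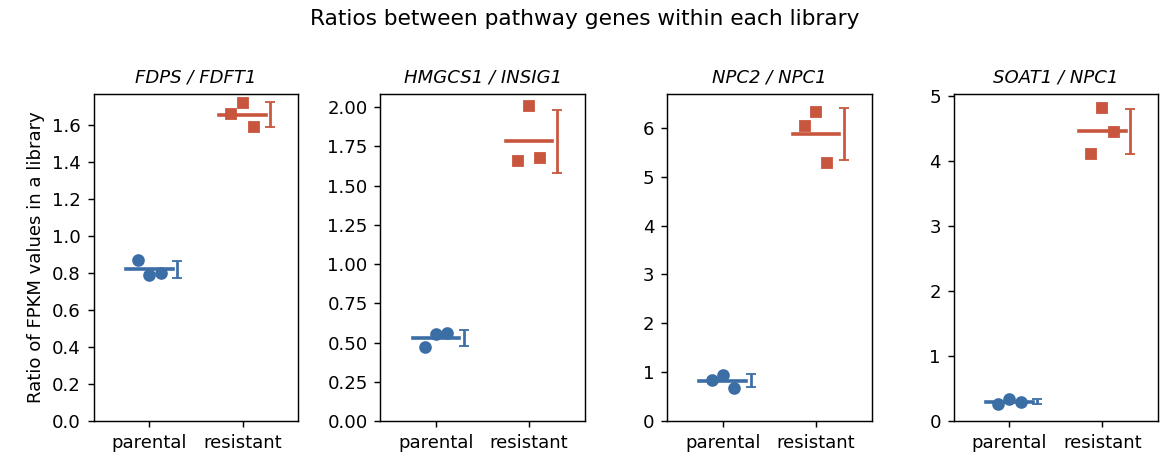
Ratios of FPKM values between pairs of genes within each library, on linear y axes from 0, for FDPS to FDFT1, HMGCS1 to INSIG1, NPC2 to NPC1 and SOAT1 to NPC1. Circles are the 3 parental and squares the 3 resistant libraries, horizontal lines the means and vertical bars the SD. In each of these 4 panels, of pairs chosen with their values known, all resistant ratios lie above all parental ratios.

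In the LXR arm, the receptors themselves did not pass. NR1H2 (LXR beta) was at 42.9, 36.4 and 39.1 FPKM in parental and at 37.8, 39.3 and 32.6 FPKM in resistant libraries, with an interval of the log2 difference from −0.37 to 0.15. NR1H3 (LXR alpha) was at 19.2, 20.2 and 16.2 FPKM in parental and at 18.1, 16.8 and 17.1 FPKM in resistant libraries, with an interval from −0.37 to 0.18. The groups of both genes overlapped. MYLIP, an LXR target that tags lipoprotein receptors for degradation, was downregulated. It stood at 15.1, 14.99 and 15.2 FPKM in parental and at 7.33, 7.66 and 8.88 FPKM in resistant libraries, a 1.90-fold decrease (log2 fold change −0.92, SE 0.11, limma adjusted p = 0.00103). Every parental value was above every resistant value by a wide margin.

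A further 76 genes around the pathway were looked up by list, and from each list the 2 most abundant are described, or 1 for the partners of SREBP. Of these 76, 73 were tested, with 21 upregulated and 21 downregulated and a median log2 fold change of −0.10. The called share was 57.5%, against 44.4% of all genes tested and 55.1% of the more abundant ones. Of all genes tested 22.1% were upregulated and 22.3% downregulated, and of the more abundant ones 25.7% and 29.3%. Among 15 genes of the isoprenoid branches, which use farnesyl diphosphate for prenyl groups, dolichol and ubiquinone, 5 were upregulated and 2 downregulated. GGPS1, which makes the longer geranylgeranyl diphosphate from it, was at 61.5 ± 2.32 FPKM in parental and 66.8 ± 3.49 FPKM in resistant cells and did not pass (SD, n = 3 each). RABGGTB, a subunit of the enzyme that prenylates RAB proteins, fell from 104 ± 17.6 to 52.0 ± 4.33 FPKM.

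Of 15 proteases, partners and degradation factors of SREBP, 7 were upregulated and 4 downregulated, or 46.7% and 26.7%. Among all genes tested 22.1% were upregulated and 22.3% downregulated, and among those averaging 1 FPKM or more 25.7% and 29.3%. SREBF1, the paralogue of SREBF2 that mainly drives fatty acid synthesis, was at 557, 505 and 590 FPKM in parental and at 106, 102 and 95.6 FPKM in resistant libraries. It fell 5.43-fold (log2 difference −2.44, SE 0.08, limma adjusted p = 8.38e-06), while the 95% interval for SREBF2 ran from −9.15e-04 to 0.33. Of 10 electron donors and partners of the sterol enzymes, 4 were upregulated and 4 downregulated. CYB5A, a cytochrome b5 that passes electrons to the oxidases of the pathway, fell from 321 ± 14.3 to 75.3 ± 3.27 FPKM (log2 fold change −2.09), and its outer mitochondrial relative CYB5B rose from 92.0 ± 2.06 to 112 ± 5.14 FPKM. C14orf1, now named ERG28 and a scaffold of the C4-demethylation complex of MSMO1 and NSDHL, was singled out after its values were seen: it was at 12.8, 12.5 and 14.8 FPKM in parental and at 89.3, 101 and 101 FPKM in resistant libraries, a log2 fold change of 2.85.

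Of 16 sterol carriers and ester hydrolases, 3 were upregulated, 6 were downregulated and 7 did not pass, where 22.3% of all genes and 29.3% of the more abundant ones were downregulated. STARD3NL, a late endosomal membrane tether, rose from 27.5 ± 3.11 to 84.5 ± 5.72 FPKM, and SCP2, a peroxisomal carrier and thiolase, from 72.6 ± 4.33 to 95.5 ± 5.90 FPKM (SD, n = 3 each). LIPA and NCEH1, singled out after their values were seen as the hydrolases that undo the work of the SOAT enzymes, were both downregulated, with log2 fold changes of −0.48 and −1.11. Of 10 genes listed as other lipoprotein receptors and adaptors, 2 were upregulated and 4 downregulated, with CLN6 among the latter. LRPAP1, a chaperone of these receptors, fell from 75.9 ± 1.78 to 47.4 ± 4.07 FPKM. CLN6, counted in this list though a protein of the endoplasmic reticulum and not itself such a receptor, fell from 51.5 ± 0.541 to 44.2 ± 1.24 FPKM. Of 10 oxysterol and bile acid enzymes, 7 were tested and 1 was downregulated. HSD3B7, at 18.3 ± 0.895 and 17.5 ± 0.949 FPKM, and CYP39A1, at 5.85 ± 1.67 and 3.79 ± 0.845 FPKM, did not pass.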

How the data were processed

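Gene expression was measured by RNA-Seq in 6 libraries, 3 of C4-2B parental and 3 of C4-2B enzalutamide resistant cells, sequenced as 50 bp single-end reads. According to the methods, the authors used TrimGalore 0.4.3 for trimming, STAR 2.5.3 for alignment against GRCh38 (GENCODE v25), and Cufflinks 2.2.1 for the FPKM values deposited per gene and library. The submitters' processing notes name Trimmomatic 0.27, FastQC 0.10.1 and a mouse build, while the gene identifiers and loci of the table are human. The header names no unit, and FPKM was taken from the authors' methods and the form of the deposited values. Scaling between libraries and strand in counting are not given in the sources used here.

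Rows were chosen by gene symbol. All genes averaging 0.1 FPKM or more entered a limma fit (limma 3.58.1, R 4.3.3) of log2(FPKM + 0.1), with a mean-variance trend and no further scaling, and two-sided p values were adjusted by Benjamini-Hochberg at 0.05. The fit was tested on simulated data. Positions come from GENCODE v44, promoters from RefSeq tables. Genes named outside the set were the 2 with the highest mean of each list, with exceptions marked, and a few genes of the lists are not reported here. The set, the lists and the motifs were chosen with earlier results of these data known. Alternatives covered the pseudocount, the filter, scaling, the variance trend, a replicate block, each library left out, and a fold threshold. Python 3.11.15, pandas 2.3.3, numpy 2.4.6 and matplotlib 3.10.9 were used. Without read counts, no counting interval could be given.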

Additional observations from a re-analysis of the deposited data

How the results depend on the processing

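The number of genes called among all genes tested went from 10868 to 6979 when a change of at least 2-fold was also required, and leaving out any 1 library gave 9303 to 10190. Within the cholesterol set, the 2-fold rule left 2 upregulated and 1 downregulated gene. With each library left out, the set held 7 to 10 upregulated and 6 to 8 downregulated genes. The other pathway genes ranged from 17 to 21 upregulated and from 15 to 19 downregulated with a library left out. The median log2 fold change of the set was −0.08 and turned to 0.024 after median ratio scaling and to 0.026 without resistant replicate 2, the highest of the fits that left out 1 library, of which the lowest gave −0.10. The cause was not tested. Of single genes, none that was called changed sign. Among those not called, IDI1 turned to 0.035 after median ratio scaling and to 9.35e-04 after quantile normalization, and ran from −0.17 to 0.082 with 1 library left out, where resistant replicate 2 turned its sign. MVK ran from −0.016, without parental replicate 0, to 0.21, and NR1H3 turned to 0.013 after median ratio scaling. HMGCS1, PMVK, MVD, FDPS, CYP51A1, NSDHL, INSIG1, NPC1, NPC2, SOAT1 and MYLIP kept their direction and their call under every alternative other than the 2-fold rule. Same-numbered parental and resistant libraries deviated together with an r of only −0.00301 to 0.0165, and differently numbered ones with −0.0260 to 0.0201. The values thus showed no pairing by replicate number, though how the libraries were prepared cannot be read from them. A fit with the replicate number as a block called 9463 genes over all, with 9 upregulated and 5 downregulated in the set and 19 in each direction among the other pathway genes. The set's median under the block was −0.08, and EBP (adjusted p = 0.0514) and TM7SF2 (adjusted p = 0.0951) were not called there. Depth limits the reading of NPC1L1 and SOAT2, whose values are near that of a few reads.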
